A study of Homo sapiens with 10 samples.

Results

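The genes described here are subunits and feedback inhibitors of the transcription factor NF-kB, whose RNA levels were read in the human melanoma line MDA-MB-435. They were chosen by name, as all probes annotated to NFKB1, NFKB2, REL, RELA, RELB, NFKBIA, NFKBIB, NFKBIE, TNFAIP3 or BIRC3. Of these 10 genes 9 were found, with 1 probe each, among 16372 annotated genes and 24136 probes. No probe was named BIRC3 in the annotation, and BIRC3 was not analysed here. The names were proposed with earlier results of the same arrays known, namely the differences of NFKBIA at 1 h and 6 h of hepatocyte growth factor (HGF) and those of RELB and NFKBIE at 1 h. The members' differences from untreated cells at 1 h and 6 h are therefore given as a description. No p is printed for any of them, and counts of members past a threshold there stand beside those of all probes, with nothing read from them.

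The series holds 10 Illumina Human-8 V1 bead arrays of total RNA. The 5 groups of 2 arrays were MDA-MB-435 cells transduced with integrin Beta4 (ITGB4), untreated MDA-MB-435 cells labelled WT, and MDA-MB-435 cells treated with HGF for 1 h, 6 h or 24 h. The 2 arrays of a group were biological duplicates according to the series design, and all groups were grown under standard conditions. The dose of HGF, the vector and promoter that carried integrin Beta4, and whether the transduced cells were 1 clone are not given in the sources used here. A control at 6 h or 24 h without HGF and cells with an empty vector were not analysed here, so time in culture and HGF, or transduction and integrin Beta4, cannot be told apart.

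NF-kB is a dimer of proteins that share a Rel domain. RELA, RELB and REL carry a transactivation domain, whereas NFKB1 and NFKB2 encode precursors that are processed to DNA-binding subunits without one. In resting cells inhibitors of the IkB family, encoded by NFKBIA, NFKBIB and NFKBIE, hold dimers in the cytoplasm. Kinases activated by cytokines, growth factors or stress mark the IkB proteins for degradation, the dimers enter the nucleus and bind kappa-B sites, and several of the genes they switch on encode their own inhibitors. TNFAIP3 encodes A20, a ubiquitin-editing enzyme that dampens the kinases upstream, and in melanoma NF-kB is known for its part in survival and chemokine output.

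Kappa-B sites upstream of the members' own genes are the sequence feature of this feedback, so the stretches that match the kappa-B consensus are shown here. Promoter windows from RefSeq on GRCh38.p14, 250 bases before to 50 bases after each annotated start, were at hand for 7 of the 9 measured genes, all but RELB and NFKBIE. A match to the decamer of the kappa-B consensus on either strand stood in at least 1 window of 6 of the 7, with none in the windows of RELA. Over all genes with such a window the share was 7.09% of 27305 genes, and over all single windows 5.91% of 35116. The member windows held a match in 8 of 13, counting the window of BIRC3. A match is a run of letters and does not show that a factor bound there in these cells, and a symmetrical site matches on both strands at neighbouring positions. In the sequences, written 5′ to 3′ on the strand of the gene, capitals mark the matched bases.
NFKBIA, the 250 bases before the start, chr14:35404750-35404999, minus strand: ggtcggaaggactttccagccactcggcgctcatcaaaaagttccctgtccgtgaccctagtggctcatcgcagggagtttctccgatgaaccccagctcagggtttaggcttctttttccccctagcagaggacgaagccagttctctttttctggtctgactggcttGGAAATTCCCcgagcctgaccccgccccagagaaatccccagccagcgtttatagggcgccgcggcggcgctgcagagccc
NFKB2, the second annotated start, chr10:102394462-102394490, plus strand: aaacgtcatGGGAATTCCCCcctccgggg
NFKB2, the second annotated start, chr10:102394490-102394519, plus strand: gggccgagaaGGGGCTTTCCcggccctgag
NFKB2, the third annotated start, chr10:102395519-102395548, plus strand: aacccccaccGGGGCTTCCCggattctcct
NFKB2, the third annotated start, chr10:102395674-102395703, plus strand: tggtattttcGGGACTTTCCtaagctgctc
NFKB1, chr4:102501300-102501329, plus strand: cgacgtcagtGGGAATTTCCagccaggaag
NFKBIB, the second annotated start, chr19:38899932-38899960, plus strand: ggcgtggtgGGGAATTTCCCgcagggcgg
REL, chr2:60881518-60881546, plus strand: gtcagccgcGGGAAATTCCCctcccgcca
TNFAIP3, chr6:137867188-137867217, plus strand: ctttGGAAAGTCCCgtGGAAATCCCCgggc

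All 9 runs of matches in measured genes lay before the start. The nearest began 21 bases before it, in the window of the third NFKB2 start, and the farthest, 176 bases before it, lay in the same window. The match of NFKBIA began 81 bases before its start, and the 2 matches of TNFAIP3 began 67 and 55 bases before theirs. NFKB2 was the only measured gene with matches in 2 of its windows.

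**Figure D1:**
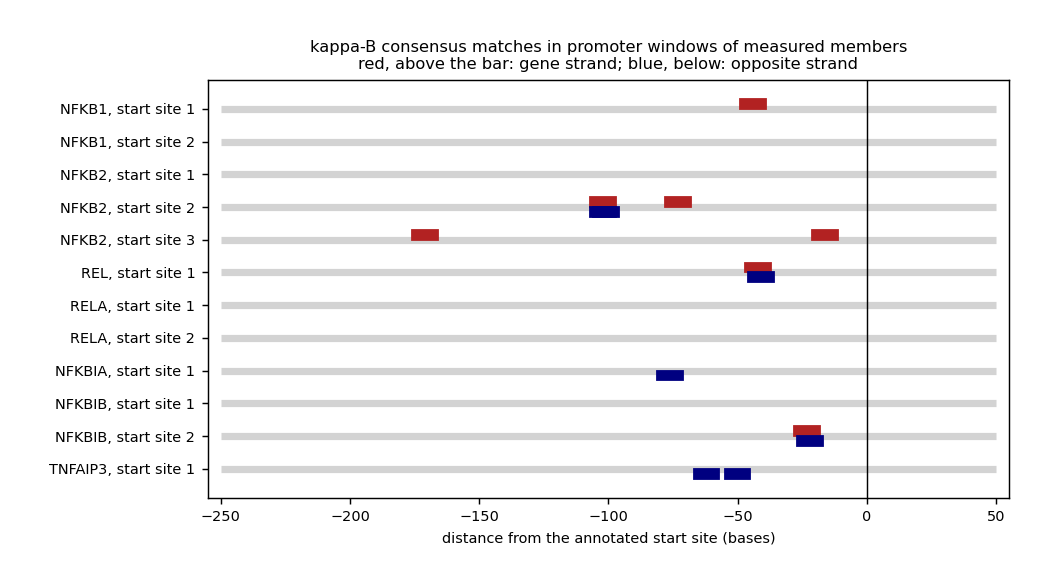
Positions of kappa-B consensus matches in the promoter windows of the 7 measured genes that have a window, as distance in bases from each annotated start site (0 on the horizontal axis). Each grey bar is a window of 300 bases; red boxes above a bar are matches on the strand of the gene and blue boxes below it matches on the other strand, and all lie between 176 bases and the start.

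Probe intensities were quantile normalised between arrays, and a signal below is this normalised intensity on a linear scale, in arbitrary units. A probe counted as detected on an array at a detection score of 0.99 or more, and the signal at the detection limit was 89.6. Per array 10226 to 11899 probes were detected. Of the 9 members, 8 were detected on all 10 arrays and REL on 8. Differences are on the log2 scale, first group minus second, with the standard error of 1 limma fit over all 14018 probes detected on at least 1 array. A difference is termed called where its p, adjusted over those probes by the method of Benjamini and Hochberg, was under 0.05. Background was not subtracted, so differences of probes near the detection limit are understated.

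The arrays differed in a way the groups do not explain. Among undetected probes, the lower quartile of the detection score was 0.000114 to 0.00353 on replicate 1 of untreated, HGF 1 h, HGF 6 h and HGF 24 h cells, called low-score arrays here, and 0.055 to 0.217 on the other 6 arrays, including both of ITGB4 cells. Each HGF time and the untreated cells thus had 1 array of each kind, and differences within each kind are given beside the results. This split was made with earlier results known. The ITGB4 probe read 6788 and 5023 in ITGB4 cells and 59.57 to 63.85, undetected, on the 8 other arrays. MET, the receptor of HGF, read 78.46 to 112.1 and was detected on 6 of the 10 arrays. Of 9 annotated melanocyte markers 9 were detected on at least 1 array, against 3 of 9 immune, 3 of 6 epithelial and 2 of 6 fibroblast markers. PAX3, a melanocyte marker, was detected only on untreated replicate 1 and ITGB4 replicate 2. CD3E, CD14, CDH1, EPCAM, COL1A1 and PDGFRB were undetected on all 10 arrays. The immune markers CD68 and LYZ, the epithelial KRT18 and the fibroblast DCN and LUM were detected on all 10, with LUM at 277.8 to 688.2. In bulk RNA, fewer cells of a type and less RNA per cell cannot be told apart.

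Among the transactivating subunits, RELB alone had both of its 1 h arrays above its other 8. RELB, the partner of processed NFKB2 in the noncanonical arm of the pathway, read 124.2 and 120.7 in untreated cells, 235.6 and 171.2 at 1 h of HGF, 128.7 and 125.7 at 6 h, and 151.4 and 148.5 at 24 h. ITGB4 cells read 112.6 and 116.2. No 2 of the 5 groups overlapped, in the order ITGB4, untreated, 6 h, 24 h and 1 h. Both 1 h arrays thus lay above all 8 others, although they differed from each other more than any other pair, with an SD of 0.33 on the log2 scale against 0.02 to 0.03 in the other groups. The difference between 1 h and untreated cells was 0.71 ± 0.17, with 0.92 within the low-score arrays and 0.50 within the high-score arrays. Without HGF 1 h replicate 1 it was 0.48, and in the authors' background-subtracted values it was 1.33.

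RELB was lower at 6 h than at 1 h, in a comparison whose 1 h arrays were known to be high when the gene was chosen, so that its test is no independent support. The difference of 6 h from 1 h was -0.66 ± 0.17 (limma, adjusted p = 0.047, n = 2 arrays each), with -0.87 and -0.45 within low-score and high-score arrays. The call was lost without HGF 1 h replicate 1, where the difference was -0.43, and without either untreated, either ITGB4 or either HGF 6 h array. Each of these fits called fewer of all probes than the fit of all 10 arrays, and the cause of the lost calls was not tested. At 24 h RELB differed from untreated cells by 0.29 ± 0.17 (adjusted p = 0.86).

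RELA, the main transactivating subunit of the canonical arm, read 852.2 and 813 in untreated cells, 1223 and 861.9 at 1 h, 931.4 and 861.9 at 6 h, and 894.5 and 921.2 at 24 h. ITGB4 cells read 789.3 and 806.4. A single array, HGF 1 h replicate 1, stood above the other 9. The 1 h difference was 0.30 ± 0.18, but 0.52 within the low-score arrays, 0.08 within the high-score arrays and 0.05 without that array. RELA was not called in any of the 7 comparisons, and its other 6 differences lay between -0.20 and 0.13.

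REL, the subunit best known from lymphoid cells, was close to the detection limit. It read 113 and 106.8 in untreated cells, 82.25 and 104.2 at 1 h, 96.39 and 111.2 at 6 h, 115.4 and 105.7 at 24 h, and 116.4 and 103.3 in ITGB4 cells. The arrays on which it was not detected were HGF 1 h replicate 1 and HGF 6 h replicate 1. It was not called in any comparison, and its 1 h difference of -0.25 ± 0.17 was -0.46 within low-score and -0.03 within high-score arrays. HGF 1 h replicate 1, the lowest array for REL, was the highest array for 6 of the 9 members, NFKB1, NFKB2, RELA, RELB, NFKBIB and NFKBIE.

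**Figure D2:**
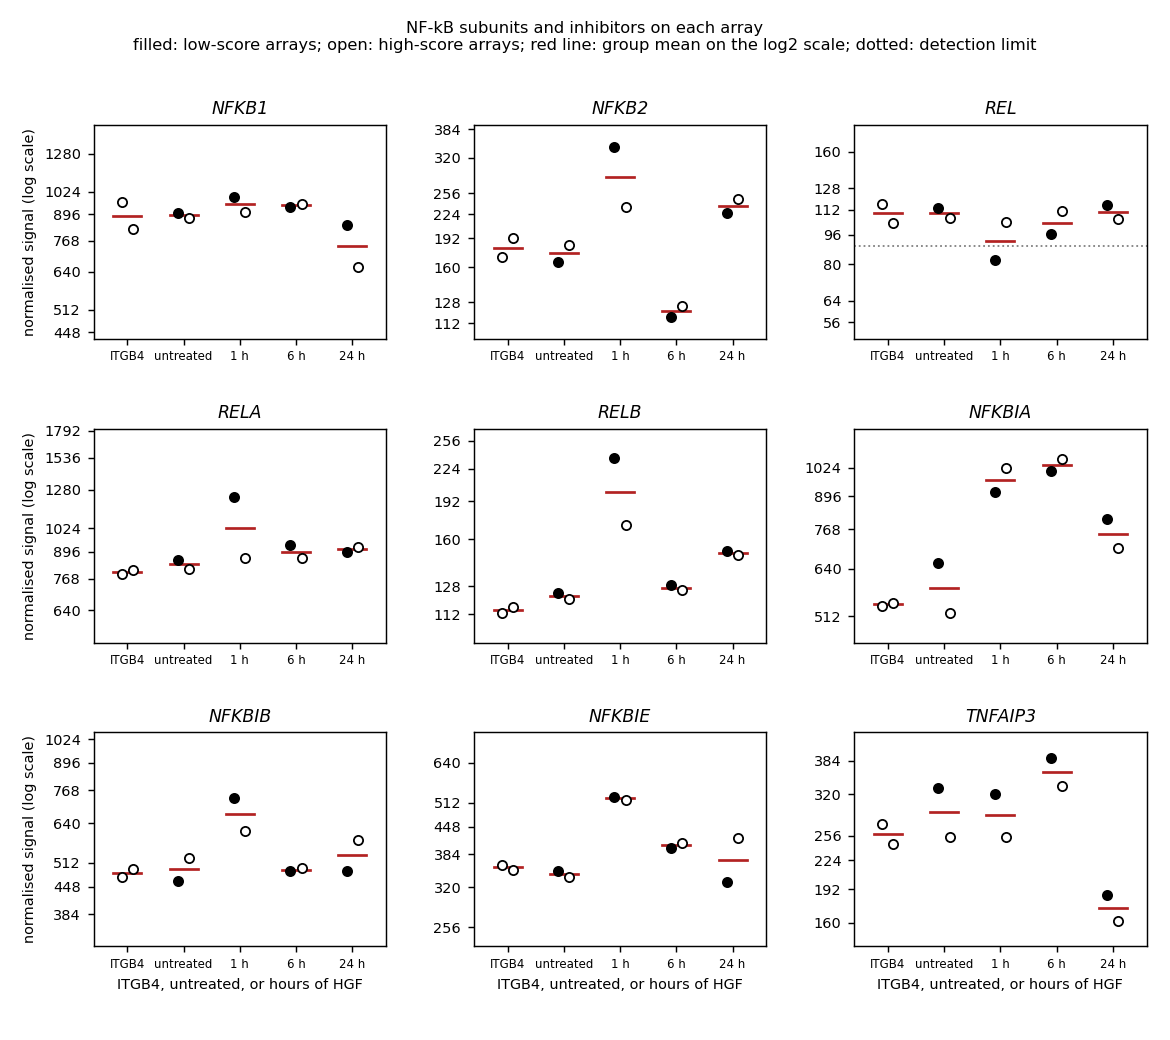
Normalised signal of the 9 members on each of the 10 arrays, on a log axis, in ITGB4, untreated and HGF 1 h, 6 h and 24 h cells; filled points are low-score arrays, open points high-score arrays, red lines group means on the log2 scale, and the dotted line the detection limit of 89.6. RELB and NFKBIE are highest at 1 h, NFKB2 is lowest at 6 h, NFKBIA is high at 1 h and 6 h, and TNFAIP3 is lowest at 24 h.

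Of the precursor genes, NFKB2 varied with the time of HGF. NFKB2, which encodes p100 and its processed form p52, read 165.9 and 184.8 in untreated cells, 343.3 and 235 at 1 h, 116.9 and 124.9 at 6 h, and 226.2 and 246.8 at 24 h. ITGB4 cells read 170.2 and 192.1. Both 6 h arrays were the lowest of the 10, and the 4 arrays of 1 h and 24 h were the highest. Its 24 h and 1 h levels overlapped, as did those of ITGB4 and untreated cells.

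NFKB2 fell between 1 h and 6 h and rose between 6 h and 24 h, each in a direct comparison of times. The 6 h cells differed from the 1 h cells by -1.23 ± 0.19 (limma, adjusted p = 0.0069, n = 2 arrays each), with -1.55 within low-score and -0.91 within high-score arrays. The 24 h cells differed from the 6 h cells by 0.97 ± 0.19, a 1.96-fold difference (adjusted p = 0.0079), with 0.95 and 0.98 within the 2 kinds of array. These 2 comparisons share the 6 h arrays. The first call was lost without HGF 1 h replicate 1, with -0.96, and without HGF 6 h replicate 1, with -1.19. The second was lost without HGF 6 h replicate 1, with 0.92. These fits leave 1 array in a group and called fewer of all probes, and the cause of the lost calls was not tested.

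Against untreated cells NFKB2 was called at no time in the fit without blocks. At 1 h it was called with the replicate number as a block, but not with the kind of array as a block. The differences were 0.70 ± 0.19 at 1 h, -0.54 ± 0.19 at 6 h and 0.43 ± 0.19 at 24 h (adjusted p = 0.86), and at each time both HGF arrays lay on 1 side of both untreated arrays. At 6 h and 24 h the values within the kinds of array were close, at -0.50 and -0.57 and at 0.45 and 0.42. At 1 h they were 1.05 within low-score and 0.35 within high-score arrays.

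NFKB1, which encodes p105 and its processed form p50, read 904 and 877 in untreated cells, 993.1 and 908.7 at 1 h, 936.3 and 952.4 at 6 h, and 841.2 and 658.8 at 24 h. ITGB4 cells read 963.6 and 820. Both 24 h arrays lay below those of the untreated, 1 h and 6 h cells. NFKB1 was nevertheless not called in any of the 7 comparisons, with its widest differences at -0.35 ± 0.17 between 24 h and 1 h (adjusted p = 0.81) and -0.34 ± 0.17 between 24 h and 6 h (adjusted p = 0.27).

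Among the inhibitors, NFKBIA was high at 1 h and still high at 6 h. NFKBIA encodes IkB-alpha, the inhibitor that is degraded and made anew within a pulse of NF-kB activity. It read 657.7 and 521.2 in untreated cells, 914.6 and 1025 at 1 h, 1009 and 1069 at 6 h, and 804.7 and 704.2 at 24 h. ITGB4 cells read 538.6 and 544.6. All 6 HGF arrays lay above all 4 arrays without HGF, and the 2 untreated arrays differed from each other by more than the arrays of any HGF time.

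The NFKBIA difference from untreated cells was 0.73 ± 0.17 at 1 h, a 1.65-fold difference, and 0.83 ± 0.17 at 6 h, a 1.77-fold difference. Within low-score arrays these were 0.48 and 0.62, and within high-score arrays 0.98 and 1.04. Levels at 6 h and 1 h overlapped, with a difference of 0.10 ± 0.17 (adjusted p = 0.84, 95% interval -0.26 to 0.46). At 24 h NFKBIA differed from 6 h by -0.46 ± 0.17 (adjusted p = 0.11) and from untreated cells by 0.36 ± 0.17 (adjusted p = 0.86), and passed the test in neither comparison. The 1 h and 6 h arrays were known to be high when NFKBIA was chosen, so tests that use them are no independent support. The 9 melanocyte markers had a summed signal of 17420 to 18380 at 6 h and 23980 to 27070 in untreated cells. It was 21340 to 23160 at 1 h, 20150 to 23250 at 24 h and 21750 to 22020 in ITGB4 cells. At 6 h 1 of the 9 was called lower than in untreated cells, where 0.935% of all probes were. The part of these markers in the NFKBIA result was not tested.

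NFKBIE, which encodes IkB-epsilon, was highest at 1 h. It read 350.2 and 339.1 in untreated cells, 528.9 and 520.2 at 1 h, 397.9 and 409.3 at 6 h, and 329.2 and 421.4 at 24 h. ITGB4 cells read 362.7 and 352.5. Both 1 h arrays were above the other 8 and close to each other, and both 6 h arrays lay above the untreated ones. The 1 h difference of 0.61 ± 0.16 was 0.59 within low-score arrays, 0.62 within high-score arrays and 0.59 without HGF 1 h replicate 1. Against 1 h the differences were -0.38 ± 0.16 at 6 h (adjusted p = 0.20) and -0.49 ± 0.16 at 24 h (adjusted p = 0.66), neither called. Both use the 1 h arrays, known to be high when NFKBIE was chosen, so their tests are no independent support.

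NFKBIB, which encodes IkB-beta, read 462.2 and 526.9 in untreated cells, 737.4 and 613.4 at 1 h, 488.2 and 496.8 at 6 h, and 489.1 and 583.4 at 24 h. ITGB4 cells read 473.6 and 495.8. It too was highest on the 1 h arrays, and no other group stood clear of the rest. The 1 h difference of 0.45 ± 0.17 was 0.67 within low-score and 0.22 within high-score arrays, and 0.31 without HGF 1 h replicate 1. The 6 h cells differed from the 1 h cells by -0.45 ± 0.17 (adjusted p = 0.14).

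TNFAIP3 was lowest at 24 h. It read 331.7 and 254 in untreated cells, 321.2 and 253.8 at 1 h, 388.7 and 334.4 at 6 h, and 185.8 and 162 at 24 h. ITGB4 cells read 272.8 and 245. Both 24 h arrays were below the other 8 and both 6 h arrays above them. TNFAIP3 fell between 6 h and 24 h by a difference of -1.06 ± 0.19 (limma, adjusted p = 0.0052, n = 2 arrays each), to 0.48 times the 6 h level. The difference was -1.06 within low-score and -1.05 within high-score arrays, and the call held without each of the 10 arrays in turn, with adjusted p between 0.0048 and 0.046. At 1 h TNFAIP3 differed from untreated cells by -0.02 ± 0.19, at 6 h by 0.31 ± 0.19 and at 24 h by -0.74 ± 0.19 (adjusted p = 0.86).

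Set beside all probes, the members at 1 h of HGF gave no call in the fit without blocks, where 0% of all probes were called. With the replicate number as a block in the fit 427 probes were called, 16.4% of them higher. NFKB2, RELB, NFKBIA and NFKBIE were among the 427. With the kind of array, low-score or high-score, as a block 0 probes were called. With an unadjusted p under 0.05, limma counted 5 of the 9 members and 1897 of the 14018 probes. The 1 h and untreated arrays did not overlap for 8 of the 9 members, 7 of them higher at 1 h, against 44.2% of all probes not overlapping and 24.1% not overlapping and higher. The members' median difference was 0.45 and that of all probes 0.04. Since this comparison entered the choice of members, these counts are only a description.

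At 6 h of HGF 1 of the 9 members was called, NFKBIA, where 1.9% of all probes were called and 0.97% called higher. Of the called probes 50.9% were higher, against 17.1% of the 246 probes called with arrays scaled to a common median. The NFKBIA difference was among those that chose the members, and nothing is read from the count. The call was lost without either untreated or either 6 h array, where the difference lay between 0.66 and 0.99. It was also lost with arrays scaled to a common median, where the difference was 0.66. Each of these settings called fewer of all probes, and the cause of the lost calls was not tested. Groups did not overlap for 7 members, 6 of them higher, against 44.6% and 20.7% of all probes. The median difference was 0.08 over members and 0.01 over all probes.

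At 24 h of HGF no member was called, where 0% of all probes were called, and limma counted 3 members and 800 probes at an unadjusted p under 0.05. Groups did not overlap for 6 members, 4 of them higher, against 29.6% and 14.9% of all probes. The median difference was 0.11 over members and 0.01 over all probes. The 1 h, 6 h, 24 h and ITGB4 comparisons share the 2 untreated arrays.

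**Figure D3:**
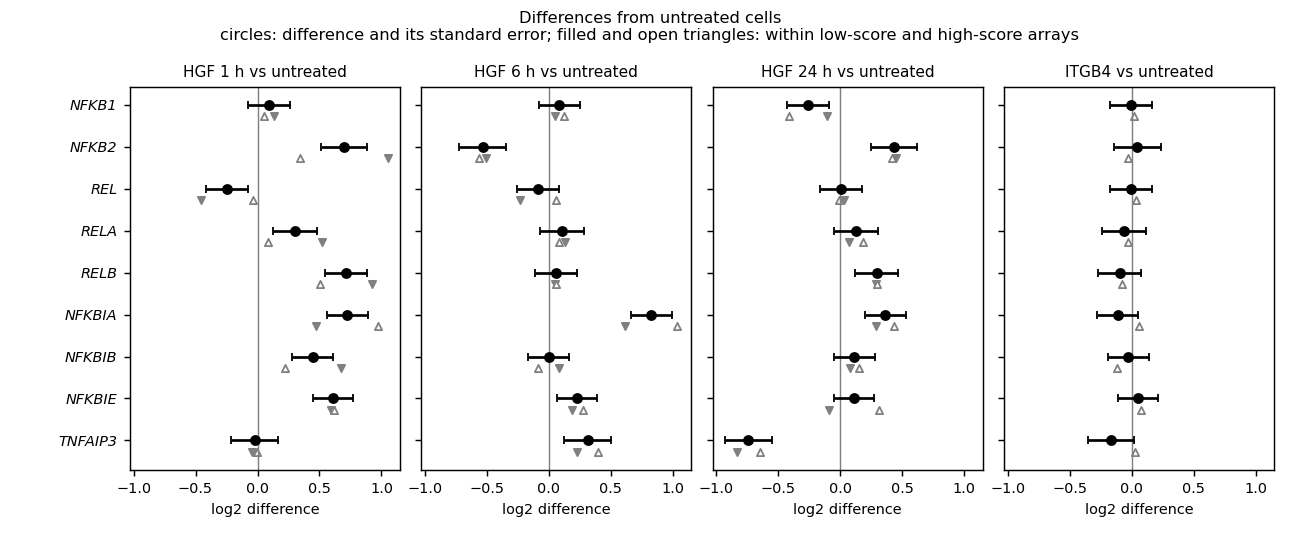
Log2 differences of the 9 members from untreated cells after 1 h, 6 h and 24 h of HGF and in ITGB4 cells. Circles with bars are differences with their standard error; grey filled and open triangles are differences within low-score and within high-score arrays. NFKBIA has the widest difference at 6 h, at 0.83, and in ITGB4 cells all 9 differences lie between -0.17 and 0.05.

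In ITGB4 cells no member was called, where 0.00713% of all probes (the probe of ITGB4 alone) were called, and at an unadjusted p under 0.05 limma counted 0 members and 117 probes. The differences ran from -0.17 ± 0.19 for TNFAIP3 to 0.05 ± 0.16 for NFKBIE, all with an adjusted p of 1. Their 95% intervals lay between -0.57 and 0.45 over the 9 members, so differences of that size were not excluded. Groups did not overlap for RELA, RELB and NFKBIE, against 25.7% of all probes. The second ITGB4 array was deposited in a pair of versions that disagree, and in the authors' table the differences ran from -0.33 to 0.11. Both ITGB4 arrays were high-score arrays, and set against untreated replicate 2, the one of the same kind, the members differed by -0.12 to 0.08.

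Between times of HGF the members were called in both directions. Comparing 6 h with 1 h, 2 of 9 were called lower, NFKB2 and RELB, and 0 higher, where 4.67% of all probes were called, 2.43% lower and 2.24% higher. Comparing 24 h with 6 h, NFKB2 was called higher and TNFAIP3 lower, where 8.31% of all probes were called, 4.24% higher and 4.07% lower. With arrays scaled to a common median 23% of the probes called between 6 h and 1 h and 65.6% of those called between 24 h and 6 h were higher, against 48% and 51% as normalised here. Comparing 24 h with 1 h, no member was called, where 0% of all probes were called, although 4 members and 888 probes had an unadjusted p under 0.05 in limma. Groups did not overlap for 5 members between 6 h and 1 h, 5 between 24 h and 6 h, and 7 between 24 h and 1 h, against 48.5%, 42.8% and 25.5% of all probes. The comparisons of times share arrays with each other and with those against untreated cells. Without limma's moderation of the variance none of the members' calls was made.

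**Figure D4:**
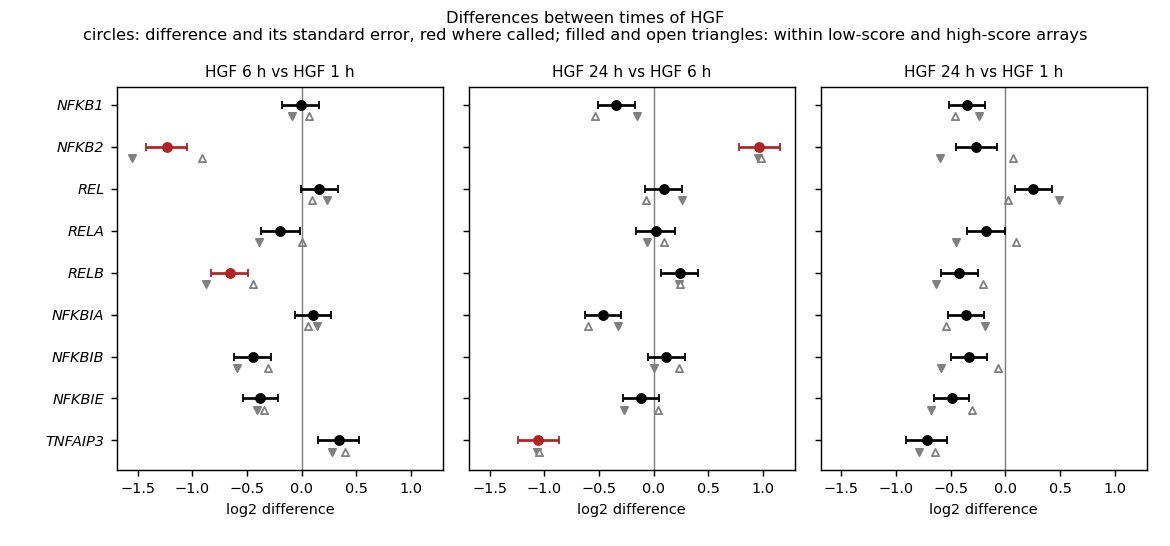
Log2 differences of the 9 members between HGF times, with standard errors, red where the adjusted p was under 0.05; grey filled and open triangles are differences within low-score and within high-score arrays. NFKB2 (-1.23) and RELB (-0.66) were called lower at 6 h than at 1 h, and at 24 h NFKB2 (0.97) was called higher and TNFAIP3 (-1.06) lower than at 6 h.

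The rest of the pathway was described from 3 lists, chosen with earlier results of these arrays known. The tests of their genes are therefore no independent support. Their counts under other settings were computed after seeing the data. Of 20 other family members, atypical IkB proteins and regulators, 19 were detected on at least 1 array, NFKBID on HGF 6 h replicate 1 alone. In the fit without blocks no gene of this list was called in 6 of the 7 comparisons. NFKBIL1, an IkB-like protein, was called higher at 24 h than at 6 h by 0.73 ± 0.17 (adjusted p = 0.018). It was 1 of 19 genes, where 4.24% of all probes were called higher. The call was lost without either HGF 6 h array, without HGF 24 h replicate 2 and without limma's moderation. Its signals were 133.2 and 151.1 at 24 h and 79.94 and 92.05 at 6 h, where it was undetected on 1 array. NFKBIZ, a nuclear IkB that works as a coactivator, read 788.2 and 732.5 at 6 h and 1517 and 1202 in untreated cells. This difference of -0.83 ± 0.25 was not called (adjusted p = 0.11). With the replicate number or the kind of array as a block NFKBIZ was called lower. TAX1BP1, an adaptor of A20, differed at 6 h from untreated cells by -0.43 ± 0.26 (adjusted p = 0.47). At 1 h the widest differences of the list were -0.64 ± 0.29 for BIRC2, a ubiquitin ligase of the receptor complexes, and -0.59 ± 0.26 for TAX1BP1 (adjusted p = 0.35 and 0.34). Between 6 h and 1 h they were 0.62 ± 0.29 for BIRC2 and -0.52 ± 0.17 for NFKBIL1 (adjusted p = 0.24 and 0.096). The median of the list was 0.03 at 1 h and -0.02 at 6 h against untreated cells, where that of all probes was 0.04 and 0.01.

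Of 40 receptors, adaptors and kinases 34 had an annotated probe, and 30 of these were detected on at least 1 array. Against untreated cells 3 were called higher at 6 h of HGF and 0 lower, where 0.97% of all probes were called higher and 0.935% lower. The difference was above 0 for 18 of the 30 and for 52.4% of all probes, with a list median of 0.07 and 0.01 over all probes. TRAF1 passed the filter only through HGF 6 h replicate 2, so nothing is read from the counts above 0 of this list, in any comparison. With median scaling 1 of the 3 was called, and the list median was -0.03 and that of all probes -0.07. No gene of the list was called without untreated replicate 2 or without either 6 h array, and 1 was called without untreated replicate 1. TNFRSF12A, the receptor of the cytokine TWEAK, read 1308 and 1353 at 6 h and 504.6 and 457.1 in untreated cells, a difference of 1.47 ± 0.19 (adjusted p = 0.0077). Both 6 h arrays were above all 8 others. LTBR, the lymphotoxin beta receptor, differed by 0.85 ± 0.18 (adjusted p = 0.032) and CUL1, a scaffold of the ligase that degrades IkB proteins, by 0.82 ± 0.17 (adjusted p = 0.031).

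Those 3 genes were lower at 24 h than at 6 h. Between 24 h and 6 h 6 of the 30 were called lower and 0 higher, where 4.07% of all probes were called lower and 4.24% higher. The difference was above 0 for 11 of the 30 and for 49.3% of all probes. The 6 called genes differed by -1.91 ± 0.19 for TNFRSF12A, -0.90 ± 0.17 for CUL1, -0.79 ± 0.18 for IRAK1, -0.78 ± 0.22 for MALT1, -0.73 ± 0.16 for UBE2N and -0.68 ± 0.18 for LTBR (adjusted p = 0.00071 to 0.044). IRAK1 is a kinase of the interleukin-1 and Toll-like receptors, MALT1 a paracaspase and UBE2N a ubiquitin-conjugating enzyme. With median scaling 2 of the 6 were called, TNFRSF12A and CUL1, as without HGF 6 h replicate 2, and TNFRSF12A alone was called without HGF 6 h replicate 1. Between 6 h and 1 h TNFRSF12A (1.09 ± 0.19) and CUL1 (1.12 ± 0.17) rose, where 2.24% of all probes were called higher, and neither was called without HGF 1 h replicate 1 or HGF 6 h replicate 1. At 1 h none was called, and the widest differences were -0.75 ± 0.22 for TBK1, an IKK-related kinase, and 0.43 ± 0.23 for its adaptor TANK (adjusted p = 0.20 and 0.44), with a list median of -0.02.

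Of 44 target genes 41 had an annotated probe, and 29 of these were detected on at least 1 array. CCL2, CCL5, IL6, IL1B and TNF were among 12 annotated targets detected on none. At 6 h 3 of the 29 were called higher than in untreated cells and 0 lower, where 0.97% of all probes were called higher and 0.935% lower. The difference was above 0 for 20 of the 29 and for 52.4% of all probes, with a list median of 0.09 and 0.01 over all probes. PTGS2, JUNB, GADD45B and CXCL1 were detected only on HGF arrays and passed the filter through them alone. Nothing is therefore read from the counts above 0 or medians of this list, in any comparison. With median scaling CXCL8 alone was called, as without untreated replicate 1, and none was called with signals floored at the detection limit, without untreated replicate 2 or without either 6 h array. CXCL8, the neutrophil chemokine interleukin-8, read 463 and 433.1 at 6 h and 173.2 and 123.7 in untreated cells, a difference of 1.61 ± 0.26 (adjusted p = 0.014). CCND1, the G1 cyclin D1, read 550.2 and 497.3 at 6 h and 216.4 and 209.9 in untreated cells (adjusted p = 0.039). IRF1, an interferon-response factor, differed by 0.76 ± 0.18 (adjusted p = 0.046).

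Between 24 h and 6 h the difference was above 0 for 11 of the 29 targets and for 49.3% of all probes. In that comparison 3 targets were called lower and 0 higher, where 4.07% of all probes were called lower and 4.24% higher. These 3 were called lower without each of the 10 arrays in turn. CXCL8 read 102.8 and 90.13 at 24 h, the second of these undetected, a difference of -2.22 ± 0.26 from 6 h (adjusted p = 0.0011). CCND1 differed by -1.74 ± 0.29 and BCL2A1, an antiapoptotic BCL2 relative, by -1.21 ± 0.19 (adjusted p = 0.004 and 0.0029). Between 6 h and 1 h the same 3 genes rose, by 1.96 ± 0.26 for CXCL8, 1.62 ± 0.29 for CCND1 and 1.31 ± 0.19 for BCL2A1, where 2.24% of all probes were called higher, and none of the 3 was called without HGF 1 h replicate 1. At 1 h no target was called, and the widest differences were -0.76 ± 0.24 for HIF1A, the hypoxia factor, and -0.56 ± 0.19 for BCL2A1 (adjusted p = 0.22 and 0.24), with a list median of 0.16 and 0.04 over all probes.

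At 24 h against untreated cells, at 24 h against 1 h and in ITGB4 cells no gene of the 3 lists was called. The widest 24 h differences from untreated cells were -0.60 ± 0.26 for CXCL8 and -0.51 ± 0.22 for IER3 among targets, -0.60 ± 0.16 for UBE2N and 0.53 ± 0.20 for TNFRSF1A, the main TNF receptor, among receptors, adaptors and kinases, and -0.36 ± 0.16 for NKRF, a repressor, and -0.34 ± 0.17 for NKIRAS1 among family members and regulators (adjusted p = 0.86 for each). Between 24 h and 1 h TNFRSF12A differed by -0.82 ± 0.19, TBK1 by 0.36 ± 0.22, IER3 by -0.82 ± 0.22, CD83 by -0.69 ± 0.19, TAX1BP1 by 0.52 ± 0.26 and NKIRAS1 by -0.49 ± 0.17 (adjusted p = 0.61 to 0.96). In ITGB4 cells the widest was 0.45 ± 0.29 for CCND1 (adjusted p = 1), whose 2 arrays read 445.8 and 188.8, against 216.4 and 209.9 in untreated cells. Those ITGB4 arrays lay on either side of the untreated ones. The other differences named for ITGB4 cells were 0.37 ± 0.23 for PSMB9, 0.29 ± 0.20 for TNFRSF1A, 0.26 ± 0.18 for LTBR, 0.25 ± 0.24 for SIVA1 and 0.24 ± 0.16 for COMMD1 (adjusted p = 1 for each).

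Likeness of pattern was described by Pearson's r of log2 signal over the 10 arrays, which share groups and array background. Of 10592 genes, TCP1 (0.96), LSR (0.93), TMEM222 (0.93), SIRT7 (0.92) and SNAPC4 (0.91) were most like NFKBIA. CRTC2 (0.96), NDUFV3 (0.95), PLEKHO2 (0.95), NQO2 (0.95) and GYS1 (0.94) were most like RELB. Among the members themselves the closest pair was NFKBIB and RELB (0.90), followed by RELA and RELB (0.88), and the most opposed was REL and RELA (-0.84). NFKB1 and TNFAIP3, both low at 24 h, had 0.82.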

How the data were processed

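The authors deposited 1 scanner table per array, written by BeadStudio 1.5.1.3 per the submitters' processing notes. Its intensity column is the mean brightness of a probe's beads, as deposited neither background subtracted nor normalised. The deposited detection score runs from 0 to 1 against negative control probes, and a bead number per probe is given. In a series table the authors deposited background-subtracted, rank-invariant normalised intensities. These were a straight line of the scanner values in 9 of 10 columns but not for ITGB4 replicate 2, so the scanner tables were used. A genome build is not given in the sources used here, and symbols came from GEO's platform annotation (18758 of 24136 probes named).

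Intensities of 24105 probes were quantile normalised and tested on the log2 scale with limma 3.58.1 in R 4.3.3, as group means over all 10 arrays (two-sided, 7 contrasts, 5 residual and 8.16 prior degrees of freedom). The fit was tested on simulated data. The number of arrays limits precision, and member probes had 19 to 52 beads on an array. The p-values set group differences against the spread between arrays within groups, pooled over the 5 groups and moderated by limma. The study's own permutation-based test was not run. The text names every member probe, the called genes of each list or otherwise its 2 widest differences, and the 5 genes most like NFKBIA and RELB. Members and lists were chosen with earlier results of these data known. Alternatives changed background correction, values, scaling, low values, filter, variance, blocks and arrays.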

Additional observations from a re-analysis of the deposited data

Results flagged for a closer look

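Each group holds 2 arrays, too few to look for single arrays that stand apart. Levels of 2 members, NFKB2 and TNFAIP3, differed between times of HGF in the direct limma comparison of the times over all probes, and the members were chosen with earlier results known. NFKB2 was -1.23 ± 0.19 on the log2 scale at 6 h against 1 h (adjusted p = 0.0069) and 0.97 ± 0.19 at 24 h against 6 h (adjusted p = 0.0079), with the HGF 6 h arrays shared by both. TNFAIP3 was -1.06 ± 0.19 at 24 h against 6 h (adjusted p = 0.0052). RELB was also picked out, at -0.66 ± 0.17 at 6 h against 1 h, but its high 1 h arrays were among the results that chose the members, so this difference is a description. It was called in 5 of 9 alternatives and without 3 of the 10 single arrays. Time in culture and HGF cannot be told apart in these comparisons.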

How the results depend on the processing

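The 5 calls of members kept their sign under all 9 alternatives, within both kinds of array where computed, and without each array in turn. Of these calls, NFKBIA at 6 h and RELB at 6 h against 1 h rest on arrays that chose them. The groups of each call did not overlap, so the sign within kinds of array and without single arrays was fixed in advance. The changes of filter, variance and blocks leave these differences as they were. The kept sign is no support in those settings. At 1 h against untreated cells the main count of 0 called members became 4 (NFKB2, RELB, NFKBIA and NFKBIE) with the replicate number as a block. It was 0 with array background as a block, where 0 of all probes were called. The counts at 24 h and in ITGB4 cells against untreated cells, and at 24 h against 1 h, were 0 under all settings run. At 6 h against untreated cells the count of 1 became 0 with median scaling and 0 in the unmoderated test, and ran from 0 to 1 without single arrays. At 6 h against 1 h the count of 2 became 1 with the series table, 1 with signals floored at the detection limit, 1 without the detection filter and 0 in the unmoderated test, with NFKB2 as the call that remained, and ran from 0 to 2 without single arrays. It was 0 without HGF 1 h replicate 1 and without HGF 6 h replicate 1. At 24 h against 6 h the count of 2 became 0 in the unmoderated test and ran from 1 to 2 without single arrays, losing NFKB2 without HGF 6 h replicate 1. NFKBIA joined it with the replicate block (adjusted p = 0.048) and with array background as a block (adjusted p = 0.049). The 6 h arrays in that comparison entered the choice of NFKBIA. The cause of these changes was not tested.

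The labels do not say that a replicate number marks a shared day or batch. Same-numbered deviations correlated above 0.1 in 8 of 10 pairs of groups but not in all, with r from -0.06 to 0.66, so the arrays were not treated as paired, and whether they were is not known. With them as a block the count over all probes became 427 from 0 at 1 h, 1089 from 267 at 6 h, 1871 from 654 for 6 h against 1 h, 2245 from 1165 for 24 h against 6 h and 4 from 0 for 24 h against 1 h. With the background block these counts were 0, 1066, 1690, 2163 and 0. The unmoderated test called 0, 0, 0, 107 and 0, the series table called 468 at 6 h, and the floor 337 for 6 h against 1 h. Without single arrays it ran from 0 to 490 at 6 h, 0 to 1037 for 6 h against 1 h and 308 to 1068 for 24 h against 6 h, and was 1 or 2 in ITGB4 cells. Where the array left out belonged to a compared group, the count fell at 6 h, for 6 h against 1 h and for 24 h against 6 h. Why the call of a single gene was lost in such a fit was not tested. Of the probes called at 6 h, 50.9% were higher, against 17.1% with median scaling and 68.6% in the series table, where the median of all probes stood at 0.16. For 6 h against 1 h the shares were 48%, 23% and 62.7%, and for 24 h against 6 h 51%, 65.6% and 39.4%. Differences of dim probes were wider in the series table, at 1.33 for RELB at 1 h, -1.90 for NFKB2 at 6 h against 1 h and 1.60 at 24 h against 6 h. REL, near the detection limit, limits what its values can show.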
